A study of Triticum aestivum with 10 samples.

Results

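Sucrose synthase, glucose-6-phosphate dehydrogenase (G6PDH) and CYP86 were read by 9 control probe sets of the Affymetrix Wheat Genome Array, out of 61290 probe sets on the array. A probe set is a group of short oligonucleotides that report 1 signal for 1 transcript region. Each of the 3 wheat genes has a probe set near the 5′ end, in the middle and near the 3′ end of its transcript. The members are AFFX-Ta_Sucsyn_5_at, AFFX-Ta_Sucsyn_M_at and AFFX-Ta_Sucsyn_3_at for sucrose synthase, AFFX-Ta_G-6-PDH_5_s_at, AFFX-Ta_G-6-PDH_M_s_at and AFFX-Ta_G-6-PDH_3_s_at for G6PDH, and AFFX-Ta_CYP86-TA_5_at, AFFX-Ta_CYP86-TA_M_at and AFFX-Ta_CYP86-TA_3_at for CYP86. They were taken by these names, and the 3 genes were chosen with their course over the 10 arrays already known, so the values of these arrays are given as a description, with no p for any member. Their identity rests on the names alone, since none of the 9 is in the platform annotation used here. The letter s in the G6PDH names marks probe sets that can match more than 1 transcript.

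BS366 is a thermo-sensitive genic male sterile (TGMS) line of bread wheat, a single line selected from a natural mutant among doubled haploids. Sterile plants had 5 days at 10 °C, and fertile plants were held at 20 °C, both with 12 h of light and both after vernalization in the field. Short anthers (1.5 and 2.0 mm), middle ones (2.2 and 2.5 mm) and long ones (3.0 mm) were taken from each treatment and hybridised to 1 array each, which gave 5 sterile and 5 fertile arrays and no replicate of any length. Every array is labelled as meiosis, but the authors place the end of mitosis and the passage to meiosis I at the 2.2-mm stage. The sources used here do not give whether an array held RNA of 1 plant or of several.

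Sucrose synthase cleaves sucrose with UDP into UDP-glucose and fructose, and so opens imported sugar to cell wall, starch and respiratory metabolism. G6PDH catalyses the first and committed step of the oxidative pentose phosphate pathway, which supplies NADPH for biosynthesis and antioxidant systems and pentoses for nucleotides. Enzymes of the CYP86 family are cytochrome P450s, best known in Arabidopsis as fatty acid hydroxylases that make precursors of cutin and suberin. The anther imports sucrose, its tapetum feeds the developing microspores, and the anther cuticle and the pollen wall are both built from hydroxylated lipids. In whole anthers a lower signal can mean less RNA per cell or fewer cells that hold it, and the 2 cannot be told apart.

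The 10 arrays had mean signals of 118 to 125 and median signals of 20.7 to 24.1. TaRAFTIN1A and TaRAFTIN1B, which are tapetum genes, lay between the 96.3 and 98.7 percentile of the 30602 probe sets tested, on the mean over all arrays. The names on the list of meiocyte markers are not among the annotated names. The 3 ubiquitin control probe sets varied by at most 1.24-, 1.35- and 1.76-fold over all arrays. The probe set for 18S ribosomal RNA ran from 32.3 to 2833 in sterile anthers, against 2.22 to 314.9 in fertile anthers, and was higher in sterile anthers at 5 of 5 lengths. The geometric mean of the 18 hybridization controls reached 863.8 on the array of fertile 2.2-mm anthers, with 287.4 to 406.1 elsewhere. That of the 12 poly-A labelling controls ran from 133.3 to 852.4 on the sterile arrays, highest at 2.5 mm, and from 75.8 to 569.5 on the fertile arrays, lowest at 2.2 mm. The part of these controls in the results was not tested.

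Sucrose synthase stayed low at every length in sterile anthers and had a tall, short peak in fertile anthers. Its 3′ probe set, AFFX-Ta_Sucsyn_3_at, gave signals of 295.4, 516.3, 260.6, 253.0 and 316.0 in sterile anthers of the 5 lengths from 1.5 to 3.0 mm, against 324.2, 308.6, 1746, 3872 and 921.7 in fertile anthers. The middle probe set gave 123.6, 189.1, 73.4, 92.3 and 117.5 in sterile anthers, against 108.0, 114.0, 1021, 3291 and 392.7 in fertile anthers. The 5′ probe set was the dimmest of the set, with 34.2, 43.6, 22.8, 25.2 and 26.5 in sterile anthers and 29.8, 37.5, 156.2, 745.8 and 111.6 in fertile anthers. From 2.2 mm on, no sterile value of any of the 3 probe sets reached the fertile value of the same length, and none reached any fertile value of 2.2 to 3.0 mm. At 1.5 and 2.0 mm the values of both treatments lay within 2-fold of each other in all 3 probe sets. The sterile values of the 5′ probe set lay close to the median signal of the arrays.

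**Figure D1:**
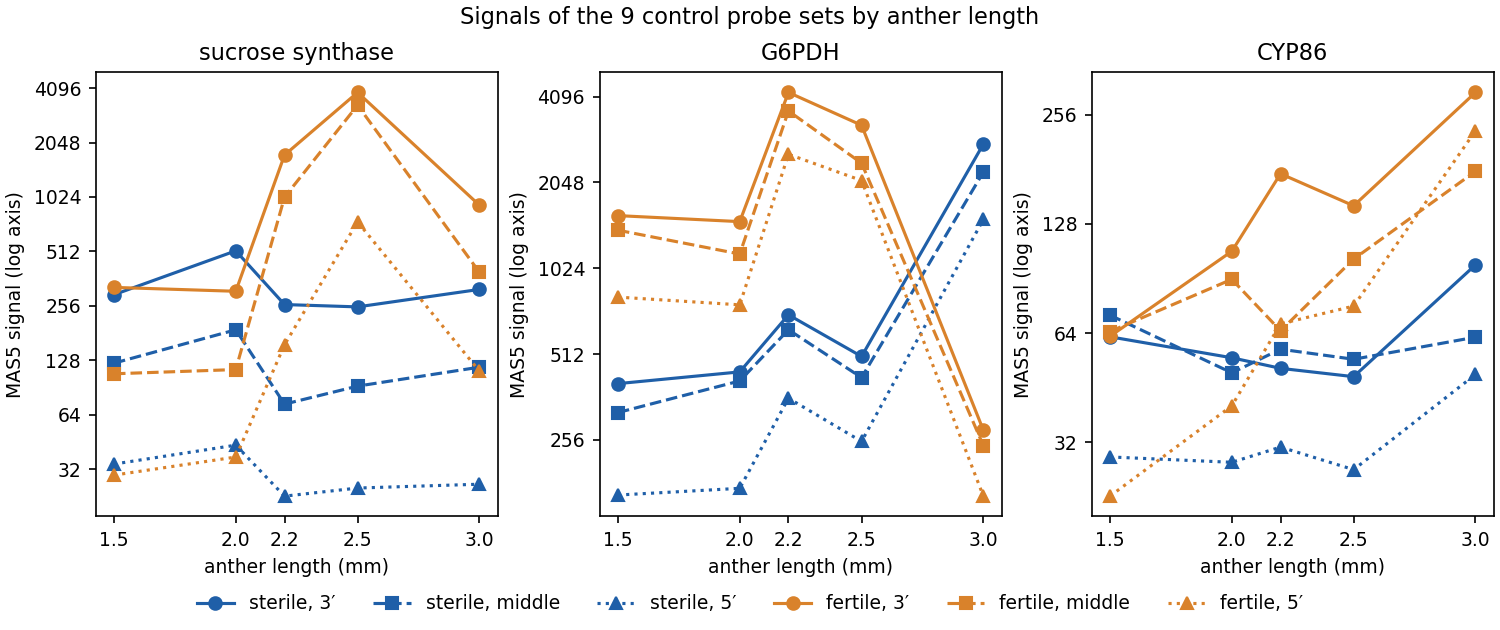
MAS5 signal on a log axis against anther length in mm for sucrose synthase, G6PDH and CYP86, with sterile anthers in blue and fertile anthers in orange. Circles with solid lines are 3′, squares with dashed lines middle and triangles with dotted lines 5′ probe sets, and each point is 1 array without error. Fertile sucrose synthase peaks at 2.5 mm and fertile G6PDH at 2.2 mm, while sterile G6PDH is highest at 3.0 mm.

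On the mean log2 signal of its 3 probe sets, sucrose synthase was highest at 2.0 mm in sterile anthers and at 2.5 mm in fertile anthers. The highest sterile level was 162.0 and the highest fertile level 2118, so that the sterile maximum was 7.65% of the fertile one. Among all tested probe sets, 0.503% had a sterile maximum as low or lower relative to the fertile maximum. In sterile anthers the highest length exceeded the lowest by 2.14-fold, a range that 20.6% of the tested probe sets reached. In fertile anthers it exceeded the lowest by 20.9-fold, a range that 1.60% reached. These shares set a mean of 3 probe sets against single probe sets. The gene was chosen for its course, so nothing is read from them.

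The fertile peak was built in successive steps that all 3 probe sets shared. The fertile level rose 5.96-fold between 2.0 and 2.2 mm, rose a further 3.24-fold between 2.2 and 2.5 mm, and dropped 6.17-fold between 2.5 and 3.0 mm. In sterile anthers the steps were of another kind: a rise of 1.50-fold between 1.5 and 2.0 mm, a drop of 2.14-fold between 2.0 and 2.2 mm, and then changes of at most 1.19-fold. The drop between 2.0 and 2.2 mm in sterile anthers thus fell at the interval in which the fertile level began its rise.

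The sterile minus fertile log2 differences of sucrose synthase were 0.09 ± 0.19, 0.56 ± 0.30, -3.11 ± 0.60, -4.66 ± 0.64 and -1.79 ± 0.27 from the shortest to the longest anthers (SD over the 3 probe sets of 1 pair of arrays, which are not replicates). The fertile level exceeded the sterile one by 8.61-fold at 2.2 mm, 25.3-fold at 2.5 mm and 3.45-fold at 3.0 mm. The mean over lengths was -1.78 ± 2.18 (SD, n = 5 lengths), so the spread over lengths was larger than the mean. Without the 2.5-mm pair of arrays the mean was -1.06 and without the 2.0-mm pair -2.37.

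G6PDH was lower in sterile anthers at the 4 shorter lengths and higher at the longest, and of the 3 genes it alone was higher in sterile anthers at 3.0 mm. Its 3′ probe set, AFFX-Ta_G-6-PDH_3_s_at, gave 403.3, 443.4, 703.0, 502.3 and 2792 in sterile anthers from 1.5 to 3.0 mm, against 1567, 1492, 4237, 3250.4 and 276.7 in fertile anthers. The middle probe set gave 319.2, 412.1, 623.2, 423.4 and 2228 in sterile anthers, against 1393, 1149, 3647, 2393 and 244.3 in fertile anthers. The 5′ probe set gave 164.0, 173.1, 358.4, 252.9 and 1519 in sterile anthers, against 811.2, 762.1, 2571, 2080.2 and 162.5 in fertile anthers. In every probe set the sterile array of 3.0 mm stood above the other 4 sterile arrays, and the fertile array of 3.0 mm stood below the other 4 fertile arrays.

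The mean level of the 3 G6PDH probe sets was highest at 3.0 mm in sterile anthers, with 2114, and at 2.2 mm in fertile anthers, with 3412. The sterile maximum was 62.0% of the fertile one, and 15.2% of the tested probe sets had a maximum ratio as low or lower. The range was 7.65-fold in sterile anthers and 15.3-fold in fertile anthers. Of the tested probe sets, 1.55% had so large a range in sterile anthers and 2.24% in fertile anthers. As for sucrose synthase, nothing is read from these shares. A maximum at 3.0 mm was found in sterile anthers for 26.4% of them and a maximum at 2.2 mm in fertile anthers for 10.3%. The fertile 2.2-mm array that holds the G6PDH maximum is also the array with the bright hybridization controls. The level of 2529 on the fertile 2.5-mm array, whose hybridization controls were within the range of the others, was the next highest.

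In sterile anthers G6PDH rose 1.71-fold between 2.0 and 2.2 mm, fell back 1.43-fold by 2.5 mm and rose 5.60-fold between 2.5 and 3.0 mm, in all 3 probe sets. In fertile anthers it rose 3.12-fold between 2.0 and 2.2 mm, fell 1.35-fold by 2.5 mm and dropped 11.4-fold between 2.5 and 3.0 mm, again in all 3. Both treatments therefore rose in the same interval from 2.0 to 2.2 mm, at a level 6.32-fold lower in sterile anthers at the end of it. The last interval ran in opposite directions.

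The G6PDH log2 differences were -2.13 ± 0.17, -1.79 ± 0.33, -2.66 ± 0.16, -2.74 ± 0.27 and 3.25 ± 0.08 from 1.5 to 3.0 mm (SD over the 3 probe sets). The fertile level was 4.38-, 3.46-, 6.32- and 6.70-fold the sterile level at the 4 shorter lengths, and the sterile level was 9.51-fold the fertile level at 3.0 mm. The mean over lengths was -1.22 ± 2.53 (SD, n = 5 lengths). It stands for no single length, because 4 differences of 1 sign and 1 of the other went into it, and without the 3.0-mm pair it was -2.33 ± 0.45 (SD, n = 4 lengths). By a count chosen after these values were seen, 65 of the 30602 tested probe sets (0.212%) were at least 2-fold lower in sterile anthers at each of the 4 shorter lengths and at least 2-fold higher at 3.0 mm. The 3 G6PDH probe sets were among those 65.

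**Figure D2:**
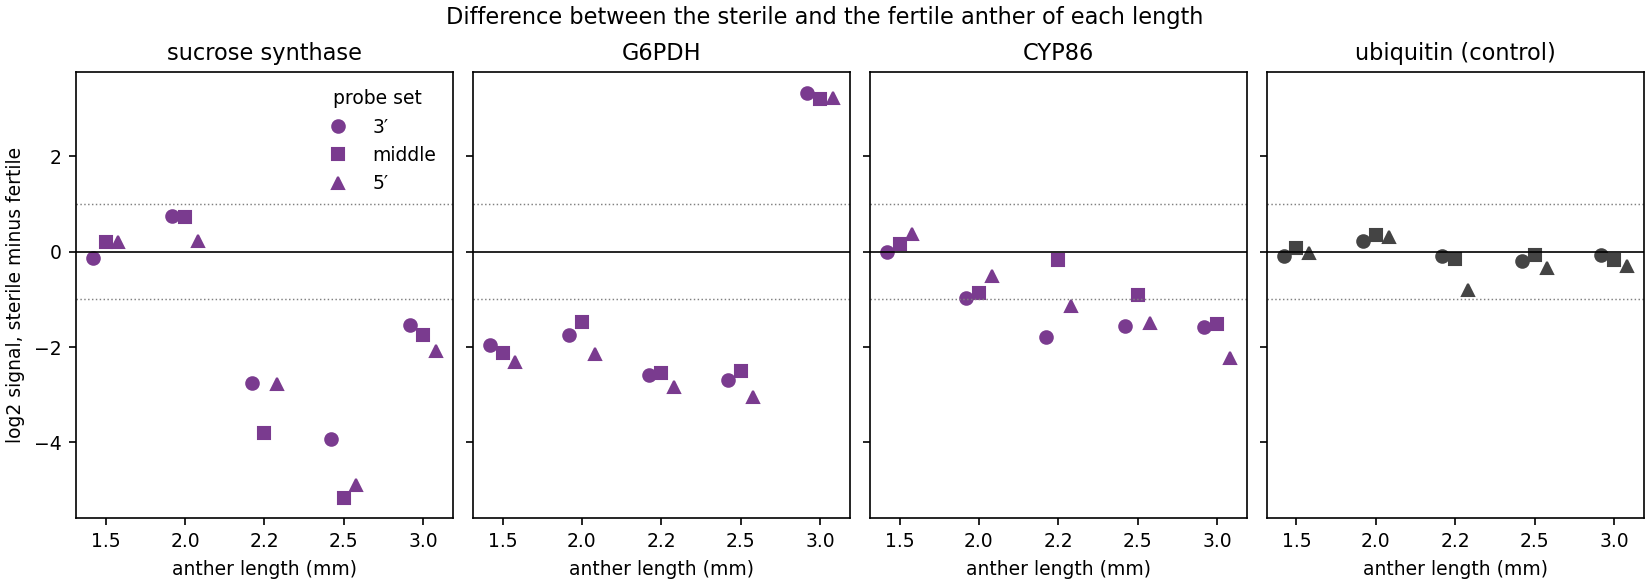
Log2 signal in the sterile minus the fertile anther of each length (mm) for the 3 genes and, in grey, the ubiquitin controls. Symbols are the 3′, middle and 5′ probe sets of 1 pair of arrays each, and dotted lines mark a 2-fold difference. G6PDH is about -1.5 to -3.0 up to 2.5 mm and above 3 at 3.0 mm, and every ubiquitin point lies within 2-fold.

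On the mean of its probe sets CYP86 climbed with length in fertile anthers and changed little in sterile anthers. The 3′ probe set, AFFX-Ta_CYP86-TA_3_at, gave 62.5, 54.7, 51.1, 48.5 and 98.7 in sterile anthers from 1.5 to 3.0 mm, against 62.7, 107.6, 176.1, 143.7 and 295.3 in fertile anthers. The middle probe set gave 71.7, 49.7, 57.7, 54.2 and 62.3 in sterile anthers, against 64.6, 90.0, 64.9, 102.4 and 178.8 in fertile anthers. The 5′ probe set gave 29.1, 28.1, 31.0, 26.9 and 49.2 in sterile anthers, against 22.7, 40.3, 67.8, 75.9 and 231.3 in fertile anthers. At 1.5 mm the treatments were alike in all 3 probe sets within 1.28-fold, and from 2.0 mm on every sterile value was below the fertile value of its length.

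Fertile CYP86 was highest at 3.0 mm, with a mean level of 230.3, and sterile CYP86 was also highest there, with 67.1, or 29.1% of the fertile maximum. As low a maximum ratio was found for 3.02% of the tested probe sets. The range was 1.62-fold in sterile and 5.10-fold in fertile anthers, which 47.0% and 10.4% of the tested probe sets reached. Nothing is read from these shares either, for the reasons given for sucrose synthase. The largest fertile step was the last, 2.22-fold between 2.5 and 3.0 mm, and sterile CYP86 rose 1.62-fold in the same interval. The middle probe set gave another sterile maximum, at 1.5 mm.

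The CYP86 log2 differences were 0.17 ± 0.18, -0.78 ± 0.24, -1.03 ± 0.81, -1.33 ± 0.36 and -1.78 ± 0.40 from 1.5 to 3.0 mm (SD over the 3 probe sets), with a mean of -0.95 ± 0.73 (SD, n = 5 lengths). On the mean of the 3 probe sets the fertile level was 1.72-, 2.04-, 2.51- and 3.43-fold the sterile level from 2.0 to 3.0 mm. By position only the 5′ probe set grew at each of these steps: the 3′ excess was largest at 2.2 mm (3.44-fold), and the middle one was 1.81-fold at 2.0 mm and 1.12-fold at 2.2 mm. The probe sets were least alike at 2.2 mm, where the 3′ difference was -1.78 and the middle one -0.17.

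Across all 9 probe sets, 31 of the 45 differences at a single length were at least 2-fold. At 1.5 mm 0 members were at least 2-fold higher in sterile anthers and 3 were at least 2-fold lower, all of G6PDH, beside 2.93% and 6.11% of all tested probe sets. At 2.0 mm the members counted 0 higher and 3 lower, again G6PDH, beside 2.07% and 7.01%. At 2.2 mm they counted 0 higher and 8 lower, beside 10.5% and 7.18%, and at 2.5 mm 0 higher and 8 lower, beside 6.07% and 10.6%. The member within 2-fold at both of these lengths was the middle probe set of CYP86. At 3.0 mm the 3 G6PDH members were higher and the other 6 lower, beside 11.2% and 10.8%. With 1 array on each side these are differences between 2 arrays, and because the genes were chosen for their course, nothing is read from the shares.

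A count chosen after the values were seen took a pattern that sucrose synthase and part of the CYP86 probe sets met. Of the tested probe sets, 197 (0.644%) lay within 2-fold at 1.5 and 2.0 mm and were at least 2-fold lower in sterile anthers at 2.2, 2.5 and 3.0 mm. They held all 3 probe sets of sucrose synthase and the 3′ and 5′ probe sets of CYP86. The middle probe set of CYP86 did not meet the pattern, with log2 differences of -0.17 at 2.2 mm and -0.92 at 2.5 mm. At 2.0 mm the genes differed in sign within the 2-fold limit, with mean differences of 0.56 for sucrose synthase and -0.78 for CYP86. In the limma fit over all 30602 tested probe sets, which asks for a mean difference over lengths that is large against its spread, 0 of the 9 members passed an adjusted p of 0.05, beside 0.0784% of all tested probe sets called higher and 0.196% called lower in sterile anthers. At an unadjusted p under 0.05 the fit had 6 of the 9 members and 17.5% of all tested probe sets, from which nothing is read, since the genes were chosen on these values and the positions of a gene are not independent. The fit looks for a constant difference. For sucrose synthase and G6PDH the SD over lengths was larger than the mean difference, and for CYP86 it was smaller (0.73 beside -0.95). Why no member passed was not tested.

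Setting each sterile array against every fertile array shows which fertile anther had the closest level. For sucrose synthase the sterile anthers of 2.2, 2.5 and 3.0 mm were closest to the fertile anther of 1.5 mm, at log2 differences of -0.42, -0.27 and -0.03, and the sterile anther of 1.5 mm was closest to the fertile one of 2.0 mm, at -0.02. No sterile level came closer than 1.08 on the log2 scale to any fertile level of 2.2 to 3.0 mm. For CYP86 the sterile anthers of 1.5 to 2.5 mm were closest to the fertile anther of 1.5 mm, within 0.17 on the log2 scale, and the sterile anther of 3.0 mm was closest to the fertile one of 2.0 mm, at -0.12. For both genes every sterile level was thus closest to that of a fertile anther of 2.0 mm or less.

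The G6PDH levels had another arrangement. The sterile anther of 3.0 mm was closest to the fertile anther of 2.5 mm, at -0.26, and above the fertile anthers of 1.5 and 2.0 mm by 0.81 and 0.95 on the log2 scale. The sterile anthers of 1.5, 2.0 and 2.5 mm were closest to the fertile anther of 3.0 mm, at 0.31, 0.51 and 0.76, and that of 2.2 mm was closest to the fertile one of 2.0 mm, at -1.02. The 4 shorter sterile anthers thus lay below every fertile anther except the longest. A level that low was not found in any fertile anther shorter than 3.0 mm, and anthers shorter than 1.5 mm were not sampled. Whether sterile G6PDH would pass its high level and fall beyond 3.0 mm was not measured either.

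**Figure D3:**
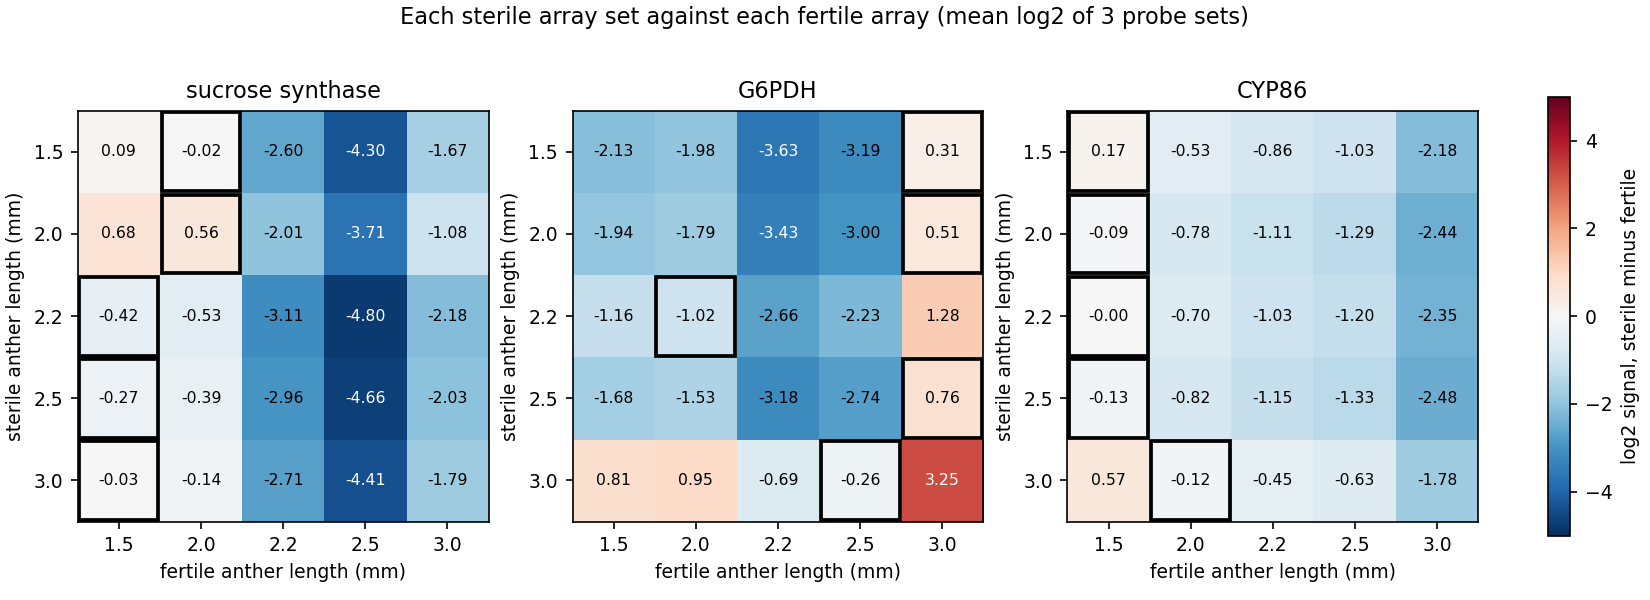
Log2 difference of each sterile anther (rows, length in mm) from each fertile anther (columns, length in mm) on the mean of 3 probe sets. Blue cells are lower and red cells higher in the sterile anther, and a black frame marks the closest fertile anther of each row. The frames of sucrose synthase and CYP86 lie at 1.5 and 2.0 mm, and those of G6PDH at 3.0 mm for 3 rows.

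A shift toward shorter fertile anthers was measured as the mean absolute log2 distance of the sterile anthers of 2.2, 2.5 and 3.0 mm from fertile anthers of the same length, 1 sampled length earlier and 2 sampled lengths earlier. For sucrose synthase the distances were 3.18, 2.64 and 1.17, for G6PDH 2.88, 1.48 and 1.13, and for CYP86 1.38, 0.83 and 0.43. The distance was smallest at 2 lengths earlier for each gene and for each of the 9 probe sets. For G6PDH the gain came mostly with the first step, and for sucrose synthase with the second. Not every single array went with these means. The sterile 3.0-mm array of sucrose synthase was 1.79 from the fertile one of its length and 2.71 from that of 2.2 mm. For G6PDH the sterile arrays of 2.2 and 3.0 mm were closest at 1 length earlier (1.02 and 0.26). A smallest mean distance at 2 lengths earlier was found for 54.7% of all tested probe sets, with 25.9% at 1 length earlier and 19.4% at the same length. Among the 15818 tested probe sets with a fertile range of at least 2-fold the shares were 60.3%, 25.2% and 14.5%. A smallest distance at 2 lengths earlier was therefore not particular to these genes, and it was the largest shift that the sampled lengths allowed. A flat, low sterile course set against a rising fertile one can give the same smallest distance, so the measure cannot show a delay. For sucrose synthase, a rise that came after 3.0 mm and no rise at all cannot be told apart.

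The 3 probe positions gave close to the same course for sucrose synthase and G6PDH and a looser one for CYP86. Over the 10 arrays Pearson's r between positions was 0.983 to 0.995 for sucrose synthase, 0.990 to 0.997 for G6PDH and 0.827 to 0.943 for CYP86, where the points share the array, its scaling and the transcript. CYP86 was also the dimmest of the genes, with mean levels at the 65.4 to 76.9 percentile of 61204 probe sets. The G6PDH probe sets lay at the 95.4 to 98.0 percentile and those of sucrose synthase between 69.2 and 95.4. All 9 fertile maxima fell at the length given by the gene's other positions, and 8 of the 9 sterile maxima did, the middle probe set of CYP86 being the exception.

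The order of the 10 arrays can be read only as far as the positions share it. For G6PDH all 9 steps down the order were shared by the 3 positions: fertile 2.2 mm, fertile 2.5 mm, sterile 3.0 mm, fertile 1.5 mm, fertile 2.0 mm, sterile 2.2 mm, sterile 2.5 mm, sterile 2.0 mm, sterile 1.5 mm and fertile 3.0 mm. For sucrose synthase the top of the order was shared: fertile 2.5 mm, fertile 2.2 mm, fertile 3.0 mm and sterile 2.0 mm. The next arrays, fertile 2.0 mm, sterile 1.5 mm, fertile 1.5 mm and sterile 3.0 mm, had levels of 109.6, 107.7, 101.4 and 99.5 and were not ordered alike by the 3 positions, and neither were sterile 2.5 and 2.2 mm. For CYP86 only the first step, fertile 3.0 mm above fertile 2.5 mm, was shared by all 3, and each of the other 8 by 2 of 3.

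The size of the fertile peak of sucrose synthase depended on the position. The fertile range was 12.6-fold by the 3′ probe set, 30.5-fold by the middle one and 25.1-fold by the 5′ one. The 3′ minus 5′ log2 difference averaged 3.42 ± 0.20 in sterile anthers and 3.08 ± 0.45 in fertile anthers (SD, n = 5 lengths each), and was lowest, 2.38, on the fertile 2.5-mm array. That array holds the peak of the gene, and it also had the lowest 3′ minus 5′ difference of G6PDH (0.64) and of the spike-ins lys (0.31) and phe (-0.17), bacterial transcripts added as labelling controls. The other spike-ins went the other way: dap (0.96) and thr (1.13) had their highest fertile values on it. Ubiquitin (-0.94) and CYP86 (0.92) were not at an extreme there. Of the dim wheat controls, EF1a had its lowest value of all arrays there (-3.38), actin its highest (1.32) and GAPDH (-2.46) neither. As a ratio of 3′ over 5′ signal, sucrose synthase ran from 5.19 to 11.9 over the arrays.

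For G6PDH the 3′ minus 5′ difference averaged 1.10 ± 0.21 in sterile anthers and 0.81 ± 0.14 in fertile anthers and was higher in sterile anthers at 5 of 5 lengths. At each length all 3 positions had a treatment difference of the same sign. For CYP86 it averaged 0.93 ± 0.15 in sterile anthers and 1.11 ± 0.47 in fertile anthers, with 0.35 at fertile 3.0 mm and 1.47 at fertile 1.5 mm as the extremes. The ubiquitin control averaged -0.71 ± 0.11 in sterile and -0.90 ± 0.22 in fertile anthers, and the dap spike-in 0.995 ± 0.225 on sterile and 0.886 ± 0.060 on fertile arrays. The lys spike-in ran from 0.41 to 1.20 on sterile and from 0.31 to 1.37 on fertile arrays, phe from 0.62 to 0.96 and from -0.17 to 1.36, and thr from 0.69 to 1.13 and from 0.60 to 1.13. The part of RNA quality and labelling in these position differences was not tested.

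**Figure D4:**
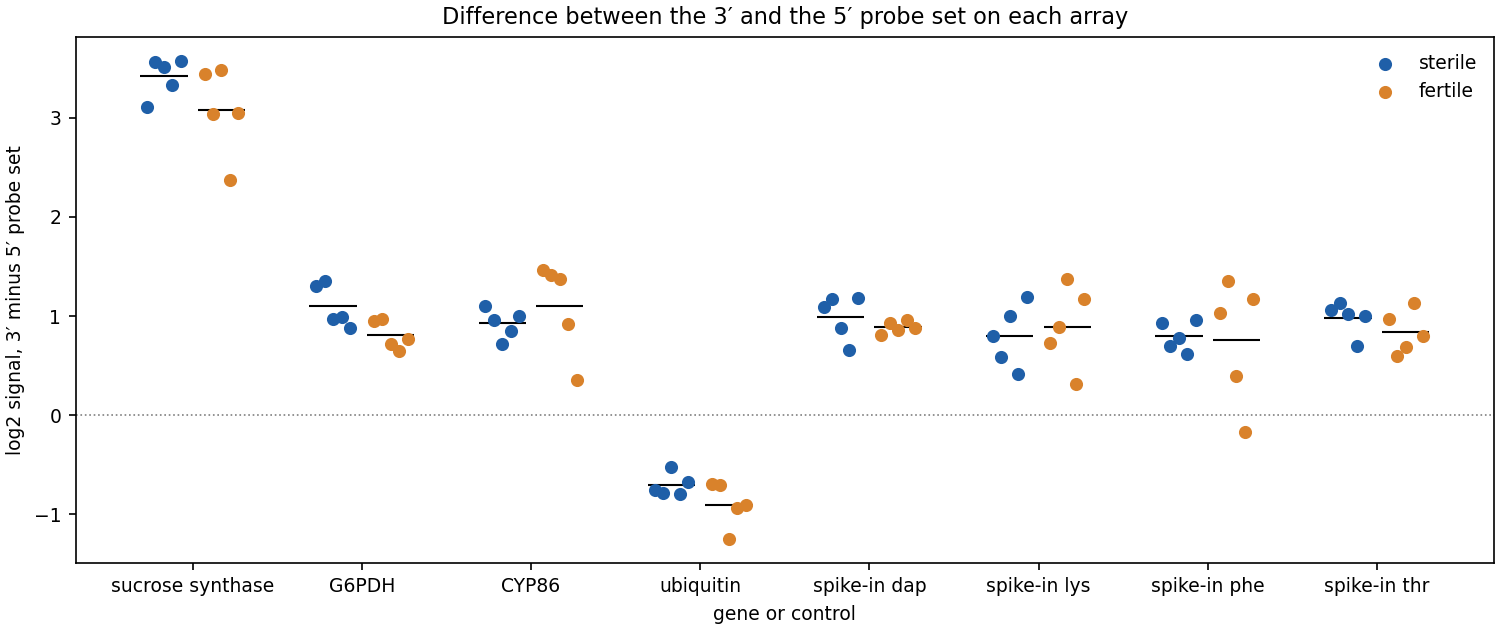
Log2 signal of the 3′ minus the 5′ probe set for the 3 genes, ubiquitin and the spike-in transcripts dap, lys, phe and thr, with 5 sterile arrays (blue) and 5 fertile arrays (orange) in order of length and black lines at the means. G6PDH averages 1.10 in sterile and 0.81 in fertile anthers, and the lowest point of sucrose synthase, 2.38, is the fertile 2.5-mm array.

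Few other genes of the same pathways carry a name in the annotation. The list of sucrose cleavage, synthesis and transport had 5 probe sets of 3 genes, of which 2 were bright enough to test and 0 passed in limma in either direction. Both were of fructan exohydrolase genes, 1-FEH and 6-FEH, so sucrose cleavage, synthesis and transport themselves were not tested. IVR1 was too dim to test, with 59.6 in fertile anthers of 3.0 mm and at most 5.15 on any other array. The tested 6-FEH probe set had a log2 difference of -1.05 (limma adjusted p = 0.26). The 1-FEH gene, a fructan exohydrolase, had signals of 295.2, 303.2, 445.4, 489.7 and 607.7 in sterile anthers, against 534.1, 704.0, 892.1, 632.4 and 674.9 in fertile anthers (log2 difference -0.72, limma adjusted p = 0.13). It was lower in sterile anthers at each length but had no peak like that of sucrose synthase. The lists of the pentose phosphate pathway and of cytochrome P450s matched 0 names. Of 2 glycolysis probe sets, 1 was tested and 0 passed: Pgk-1, a phosphoglycerate kinase gene, had a log2 difference of -1.42 (limma adjusted p = 0.090).

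The list of lipid and pollen wall genes had 6 probe sets of 3 genes, of which 5 were tested, 0 were higher and 3 lower in sterile anthers in limma, beside 0.0784% and 0.196% of all tested probe sets. These calls were lost without the filter and without the 1.5-, 2.2- or 2.5-mm pair of arrays, where limma called 0 probe sets of any gene. The 3 were both probe sets of TaRAFTIN1A (log2 differences -1.73 and -1.42, limma adjusted p = 0.036 and 0.041) and 1 of TaRAFTIN1B (-1.63, limma adjusted p = 0.041), whose products go from tapetum to pollen wall. The other TaRAFTIN1B probe set did not pass (-1.98, limma adjusted p = 0.056). The first TaRAFTIN1A probe set and the called TaRAFTIN1B one had nearly the same signals, 2750 and 2797 at sterile 3.0 mm and 5903 and 5941 at fertile 2.2 mm. They may read the same transcripts, which was not tested, so the 3 calls do not count as separate genes. LTP3, a lipid transfer protein gene, did not pass (-2.60, limma adjusted p = 0.15). Its signals ran from 11.6 to 45.3 in sterile anthers and were 43.4, 34.6, 115.8, 145.6 and 2554 in fertile anthers from the shortest to the longest, and like CYP86 it had its fertile maximum at 3.0 mm. The median log2 difference was -1.73 over the 5 tested probe sets of this list and -0.02 over all tested probe sets. All of these 5 except that of LTP3 were of TaRAFTIN1A or TaRAFTIN1B, so the median does not describe lipid and pollen wall genes at large.

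Among the 121 tested probe sets with a gene name (76 genes), the course of each gene was set against the others by Pearson's r of log2 signal over the 10 arrays, given as a description. Most like sucrose synthase were lgul (0.90), a proton ATPase gene (0.828), Pgk-1 (0.798), PER1 (0.792) and Trx-M (0.776). The lgul signals, 16.4, 28.9, 14.3, 17.8 and 41.8 in sterile anthers and 19.5, 18.8, 56.5, 94.3 and 40.4 in fertile anthers, were also highest in fertile anthers of 2.5 mm and dim throughout. Most like G6PDH were TSA (0.918), Prx1 (0.884), GA20OX1-A (0.870), CAT1 (0.844) and GA20ox1b (0.834), of which CAT1 encodes a catalase and the GA20ox genes gibberellin 20-oxidases. Most like CYP86 were SAHH (0.971), the proton ATPase gene (0.956), FBP (0.940), PEAMT1 (0.921) and LTP3 (0.914), and furthest from it were the histone genes H2A-2 (-0.97) and H2A-9 (-0.97). Furthest from sucrose synthase were tubb1 (-0.78) and tubb3 (-0.77), and furthest from G6PDH were APRT (-0.86) and Tubb4 (-0.84).

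**Figure D5:**
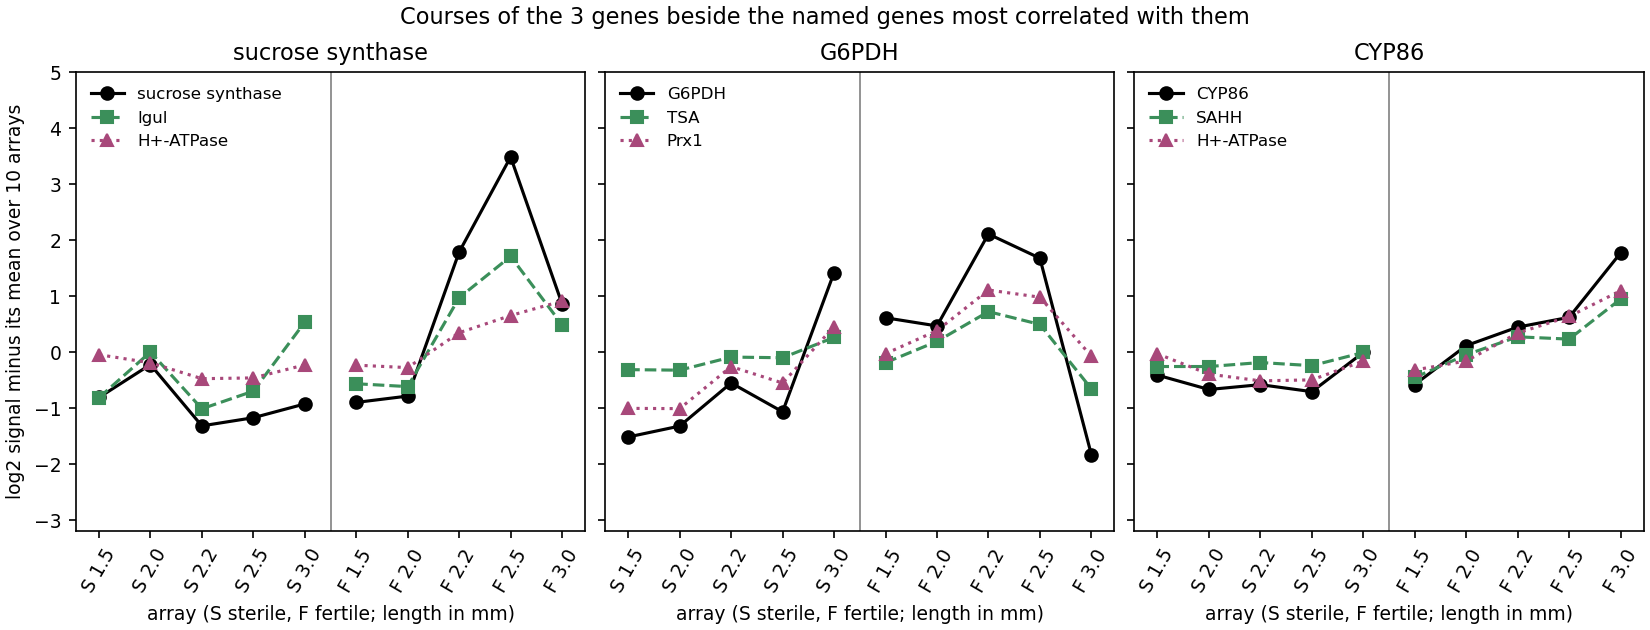
Log2 signal minus its mean over the 10 arrays, sterile arrays on the left and fertile arrays on the right of each panel in order of length, for each gene (black, mean of 3 probe sets) and the 2 named genes with the highest correlation (green and purple). TSA and Prx1 rise at 3.0 mm in sterile anthers and fall there in fertile anthers, as G6PDH does, with smaller changes.

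Of 30593 tested probe sets outside the members, 94 had an r of at least 0.9 with sucrose synthase, 146 with G6PDH and 520 with CYP86. The closest of all was a probe set without a gene name for each gene, at 0.991, 0.998 and 0.989. Probe sets without a name may read the same transcripts as the members, which was not tested, so these counts are not counts of other genes. Between the genes themselves r was 0.457 for sucrose synthase with G6PDH, 0.632 for sucrose synthase with CYP86 and 0.0994 for G6PDH with CYP86.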

How the data were processed

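Anthers of BS366 were hybridised to 10 Affymetrix Wheat Genome Arrays. The authors deposited 1 linear intensity per probe set, the MAS5 signal; the MAS5 version, scaling target and detection calls are not given in the sources used here. Of 61290 rows, 86 spike-in and other controls were left out and 25 wheat control probe sets kept. Signals under the 20th percentile (4.05) were set to it and log2 was taken; no member was below it. The 30602 rows with a mean log2 no lower than the median were fitted in limma 3.58.1 (R 4.3.3, trend, treatment and length as factors, 4 residual degrees of freedom, Benjamini-Hochberg threshold 0.05). A check of the code on simulated data drew independent noise for each value, so it cannot speak to differences shared by a whole array. Lengths stand in for replicates, so p-values rest on the spread over lengths. The fit moderates that spread toward that of probe sets of like intensity. The number of arrays limits precision. Gene levels are means of log2 over the 3 probe sets.

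The members and lists were chosen with earlier results of these data known. Genes named besides the members are, per gene, the 5 named genes with the highest and 2 with the lowest r, and list members. A lipid transfer gene that matched the pentose phosphate list by its letters alone was removed from it. The annotation gave 1273 probe sets a gene, and 200 of them a name (RefSeq, IWGSC CS RefSeq v2.1).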

Additional observations from a re-analysis of the deposited data

Results flagged for a closer look

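In a screen of 45 groups of 5 values, 6 had a value whose gap to its nearest neighbour took up more of the range than Dixon's 95% value for 5 samples. Chance alone would mark about 1 group in 20 if the groups were independent. They are not, since the probe sets of a gene share arrays and their mean shares their values. The genes were also chosen on these values, so the 6 are not set against that rate. The values of a group are different anther lengths, which are not replicates. All 6 were at 3.0 mm. In sterile anthers the share was 0.763 for the 5′ probe set of CYP86 (log2 signal 5.62, the other lengths 4.75 to 4.95) and 0.713 for the 3′ probe set of G6PDH (11.4, the others 8.66 to 9.46). For the sterile minus fertile differences of G6PDH it was 0.844 for the 3′ probe set, 0.856 for the 5′ probe set, 0.813 for the middle probe set and 0.841 for their mean. G6PDH was higher in sterile anthers at 3.0 mm by 3.25 on the log2 scale, in all 3 probe sets, while its differences at the other lengths ran from -3.04 to -1.48. With 1 array per treatment and length this change of sign between lengths was not tested.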

How the results depend on the processing

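The mean differences of the 3 genes kept their direction under all 13 alternatives each, from -2.37 to -1.06 for sucrose synthase, -2.33 to -0.83 for G6PDH and -1.23 to -0.66 for CYP86. The peak lengths and the 2-length shift were unchanged under each scaling, and 24 to 36 of the 45 differences were past the 3-fold and 1.5-fold thresholds. The floor settings, counted among the 13, could not change any member value, because 0 of them lay below either floor. For the 3′ minus 5′ differences only the floor was varied, so these had no check. The count over all probe sets, 84 by limma, was less stable: 34 with median centring (15 higher and 19 lower in sterile anthers, beside 24 and 60 in the 84), 9 without the length block, 4 in eBayes without a trend, 0 without a filter (7201 at an unadjusted p under 0.05), 1 without the 2.0-mm pair, 601 without the 3.0-mm pair, and 0 without the pair of 1.5, 2.2 or 2.5 mm (5614, 3999 and 3302 at an unadjusted p under 0.05). The cause was not tested. It was 76 to 97 with quantile normalization, no floor, a higher floor, a stricter filter and, chosen after seeing the data, scaling on ubiquitin. The fit pairs sterile and fertile arrays by anther length; the labels give no replicate numbers to pair by. With 1 array per length, differences at a single length have no replicate check.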

Other observations

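Outside the members, 16 further wheat control probe sets were on the arrays. Those for actin, EF1a and GAPDH were dim, between 3.53 and 180.0 on all arrays. The 3 ubiquitin probe sets had mean sterile minus fertile log2 differences of -0.04 (3′), 0.01 (middle) and -0.24 (5′) over the 5 lengths.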
